A study of Rattus norvegicus with 9 samples.

Results

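Extracellular proteases and their inhibitors were followed in RNA from rat hippocampus after exposure to ketone bodies. The 9 genes, chosen by symbol as matrix proteases, plasminogen activators and inhibitors, were Adamts1, Adamts4, Adamts9, Mmp9, Plat, Plau, Timp1, Timp2 and Timp3. They are 9 of the 14217 genes to which the platform annotation assigns a probe set (a group of short probes for 1 transcript) on its own, and they carry 16 of the 31042 probe sets. The choice rested partly on a measured value, the higher signal of Adamts1 at 6 h than in control. For these 9 genes the comparison of 6 h with control is therefore given below as a description without p-values. The study had 3 groups of 3 arrays: ketone bodies for 1 h, ketone bodies for 6 h, and control in artificial cerebrospinal fluid only. Per the labels all samples are total RNA from hippocampal neurons of Rattus norvegicus; the sources used here give no strain, age, kind or dose of ketone bodies, or duration of the control exposure. The labels leave unsaid whether a group's arrays stem from different animals or cultures, and every p-value therefore reflects the spread among these arrays alone, which may be technical.

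ADAMTS enzymes are secreted metalloproteinases that cut the large chondroitin sulphate proteoglycans of brain matrix, among them aggrecan, brevican and versican. MMP9 is a gelatinase released in response to neuronal activity and inflammation. The plasminogen activators, tissue-type (Plat) and urokinase-type (Plau), convert plasminogen to plasmin, which degrades matrix and activates other proteases, and the tissue-type enzyme is released by hippocampal neurons during synaptic plasticity. Tissue inhibitors of metalloproteinases (Timp genes) block metalloproteinases, and the matrix-bound TIMP3 also inhibits ADAMTS enzymes and the sheddase ADAM17.

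Values are log2(signal + 16) after quantile normalization, and a change is a difference on that scale, which understates the change of dim probe sets. Of the 16 probe sets, 12 had a mean over all arrays at or above the 40th percentile (log2 5.21) and were tested among 18625. The 4 that stayed below were the pairs for Mmp9 and Plau. Pairs of arrays correlated at 0.949 to 0.987 within a group and at 0.945 to 0.988 between groups. All 6 excitatory neuron markers and all 6 interneuron markers passed the filter, and so did 8 of 8 astrocyte, 9 of 10 microglial, 5 of 5 oligodendrocyte, 7 of 7 endothelial, 7 of 8 pericyte and smooth muscle, 6 of 6 meningeal fibroblast and 2 of 5 choroid plexus markers. Markers of cells other than neurons were thus measured as well. Of 4 neutrophil markers on the array 0 passed. In bulk RNA, fewer cells of a type and less RNA per cell cannot be told apart.

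The promoter of Adamts1, the gene whose value entered the choice, is shown with that of Timp3, an inhibitor of ADAMTS enzymes measured by 4 probe sets. Both windows run from 250 bases before to 50 bases after the RefSeq start in build GRCr8, and both genes lie on the minus strand, Adamts1 at chr11:38427335-38427634 and Timp3 at chr7:19459509-19459808. Capitals mark GC boxes (GGGCGG or its reverse complement CCGCCC) and the TATA box (TATAAA), searched on both strands.
Adamts1: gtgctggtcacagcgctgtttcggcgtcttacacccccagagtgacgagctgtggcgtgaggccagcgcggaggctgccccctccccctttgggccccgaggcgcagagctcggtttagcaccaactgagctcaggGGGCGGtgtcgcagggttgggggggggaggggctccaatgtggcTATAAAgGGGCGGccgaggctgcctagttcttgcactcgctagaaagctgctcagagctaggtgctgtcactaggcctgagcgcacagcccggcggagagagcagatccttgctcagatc
Timp3: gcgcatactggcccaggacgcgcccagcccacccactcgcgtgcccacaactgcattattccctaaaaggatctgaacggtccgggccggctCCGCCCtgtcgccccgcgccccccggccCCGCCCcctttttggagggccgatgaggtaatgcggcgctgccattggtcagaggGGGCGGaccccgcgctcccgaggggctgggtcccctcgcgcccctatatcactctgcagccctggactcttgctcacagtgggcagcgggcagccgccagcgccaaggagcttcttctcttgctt

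Promoters of 7 of the 9 genes were matched in the RefSeq table. A GC box stood in 6 of the 7 (Adamts1, Adamts9, Plau, Timp1, Timp2 and Timp3), and in 33.1% of all 33469 promoters of that length. The TATA box was matched in 1, Adamts1, at positions -70 to -65 from the annotated start, 1 base before a GC box at -63 to -58. It occurs in 14.2% of all promoters. The AP-1 site TGANTCA (7.33% of all promoters) and the cyclic AMP response element TGACGTCA (1.83%) were matched in 0 of the 7 windows, which says only that these letters are not in these windows.

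The first comparison asked which of these genes differed after 1 h of ketone bodies. The stated ground for the choice was the 6 h value of Adamts1, not a 1 h value, but earlier results of these data were known. That ground also used the control arrays, which this comparison shares with 6 h against control. For Adamts1 the test is therefore not independent of the choice. Adamts1 had 6.89, 6.78 and 6.70 on the 1 h arrays, against 6.22, 6.19 and 6.30 on the control arrays. Every 1 h array lay above every control array. In deposited signal this is 101, 91.7 and 84.2 at 1 h, against 60.2, 60.1 and 67.0 in control. The change was 0.56 ± 0.12 (SE, n = 3 arrays per group throughout; 95% interval 0.28 to 0.83), a fold of 1.47 on the signal + 16 scale. By limma its unadjusted p was 0.00113 and its adjusted p over all probe sets 0.298, so it did not pass the threshold of 0.05. Its log2 change was the 140th highest of the 18625 tested.

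Plat had 8.59, 8.69 and 8.37 at 1 h, against 8.34, 8.07 and 8.22 in control. The groups did not overlap, although the lowest 1 h array and the highest control array were close together. Its change of 0.34 ± 0.11 (95% interval 0.085 to 0.59) had a limma adjusted p of 0.378. The inhibitor Timp1, which many cell types make in response to cytokines, had 6.06, 6.42 and 6.25 at 1 h, against 5.93, 6.12 and 5.74 in control. Here the lowest 1 h array lay below the highest control array. The change of Timp1 was 0.31 ± 0.15 (adjusted p = 0.457 by limma).

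**Figure D1:**
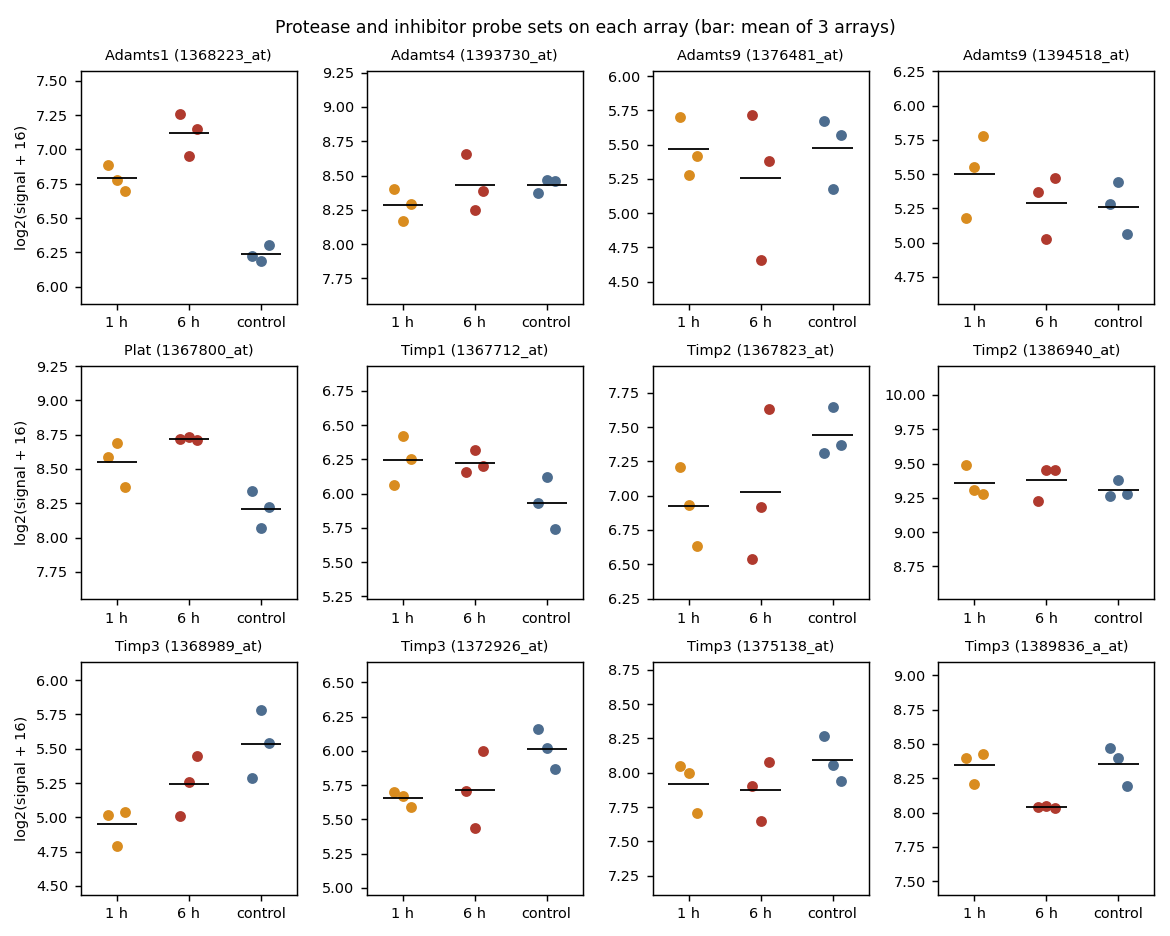
Each panel plots 1 tested probe set, with log2(signal + 16) on the y axis (each spanning the same number of log2 units) and the groups 1 h, 6 h and control on the x axis; points are arrays and bars the mean of 3. The 3 groups of Adamts1 are separate, with 6 h highest (mean 7.12), then 1 h (6.79) and control lowest (6.24), and Plat shows the same order.

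Timp3 was measured by 4 tested probe sets that gave different sizes. The probe set 1368989_at had 5.02, 4.79 and 5.04 at 1 h, against 5.29, 5.78 and 5.54 in control. All 1 h arrays were below all control arrays, but the 1 h values lay under the filter level of 5.21, so the size of the change of -0.59 ± 0.18 (adjusted p = 0.351 by limma) rests on low signals. The probe set 1372926_at had 5.70, 5.67 and 5.59 at 1 h, against 6.16, 6.02 and 5.87 in control, again without overlap. Its change was -0.36 ± 0.16 (adjusted p = 0.441 by limma). The brighter pair overlapped between the groups, with -0.17 ± 0.15 for 1375138_at and -0.0084 ± 0.11 for 1389836_a_at, and 95% intervals of -0.51 to 0.16 and -0.25 to 0.24. Across the 9 arrays, these 4 probe sets correlated with each other at 0.0549 to 0.881, as a description of arrays that share their groups.

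Timp2, an inhibitor of gelatinases that also takes part in activating MMP2, had a pair of probe sets that went apart. The probe set 1367823_at had 7.21, 6.93 and 6.63 at 1 h, against 7.31, 7.65 and 7.37 in control. The 1 h arrays were all lower, by -0.52 ± 0.26 (adjusted p = 0.473 by limma). The brighter 1386940_at had 9.49, 9.31 and 9.28 at 1 h, against 9.26, 9.38 and 9.28 in control, which overlap. Its change was 0.052 ± 0.098, with a 95% interval of -0.17 to 0.27.

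The dimmer Timp2 probe set was set beside a measure of RNA quality. For beta-actin the array has control probe sets at both transcript ends, and their 3'/5' log2 ratio, which is higher in more degraded RNA, was 1.39, 2.16 and 2.02 on the 1 h arrays, 2.58, 1.92 and 1.03 on the 6 h arrays, and 1.37, 1.27 and 1.42 on the control arrays. The 4 arrays with the highest ratios were the 4 with the lowest 1367823_at values, and the 6 h array with the lowest ratio had 7.63, inside the control range. With the ratio as a covariate, the change of 1367823_at at 1 h was -0.17 (adjusted p = 0.798 by limma). In the same fit Adamts1 had 0.55, Plat 0.33 and Timp3 1368989_at -0.45, with a limma adjusted p of 0.655 for each of these 3. The ratio itself gave an exact 2-sided permutation p of 0.2 for 1 h against control and 0.4 for 6 h against control (adjusted p = 1 for each over 6 tests), where 3 against 3 cannot go below 0.1. For the corresponding Gapdh ratio the 1 h arrays had 0.11 ± 0.04 (SD, n = 3), the 6 h arrays 0.19 ± 0.23 and the control arrays 0.13 ± 0.11. The part of RNA quality in any of these changes was not tested.

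**Figure D2:**
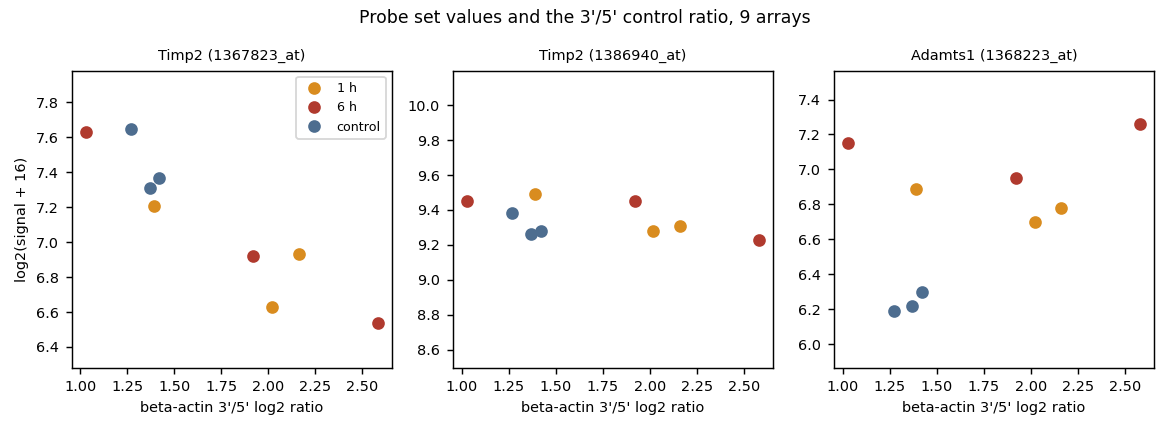
The x axis is the beta-actin 3'/5' log2 ratio of each of the 9 arrays and the y axis log2(signal + 16), for both Timp2 probe sets and Adamts1; points are arrays, coloured by group. Timp2 1367823_at is lowest (6.54) on the array with the highest ratio (2.58). The 6 h arrays of Adamts1 lie at 6.95 or above at ratios from 1.03 to 2.58.

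The aggrecan- and brevican-cutting Adamts4 had 8.40, 8.17 and 8.29 at 1 h, against 8.37, 8.47 and 8.46 in control. The groups overlapped, and its change was -0.15 ± 0.12 (95% interval -0.42 to 0.12). Adamts9, which cuts versican and aggrecan, was close to the filter level in both probe sets, with group means between 5.26 and 5.50. Its changes at 1 h were -0.005 ± 0.26 for 1376481_at and 0.24 ± 0.20 for 1394518_at, and the pair correlated at 0.132 over the 9 arrays. Mmp9 and Plau were not tested. The Mmp9 probe set 1398275_at had 5.39, 5.26 and 5.49 at 1 h, against 5.27, 4.90 and 4.76 in control, with a difference of 0.40. The other Mmp9 probe set differed by 0.064, and those of Plau by 0.14 and 0.027.

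Over the 12 tested probe sets limma called 0 at 1 h at an adjusted p of 0.05, beside 0.0322% of all tested probe sets (0.0215% higher and 0.0107% lower). At an unadjusted p under 0.05 there were 3 of 12, beside 11.4% of all tested. Of these 2 were higher (Adamts1 and Plat; 6.68% of all) and 1 lower (Timp3 1368989_at; 4.67% of all). That Timp3 probe set passed the filter, with a mean of 5.24, through its control arrays, so its place in the count is a description only. The same holds for Adamts1, whose choice used the control arrays. Over all 16 probe sets, 2 lay entirely above control (Adamts1 and Plat), which was so for 10.3% of all 31042 probe sets. Another 3 lay entirely below control (Timp2 1367823_at, Timp3 1368989_at and 1372926_at), as did 7.25% of all. The median change of the 16 was 0.039, with 9 positive, beside a median of 0.021 and 54.3% positive over all probe sets.

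**Figure D3:**
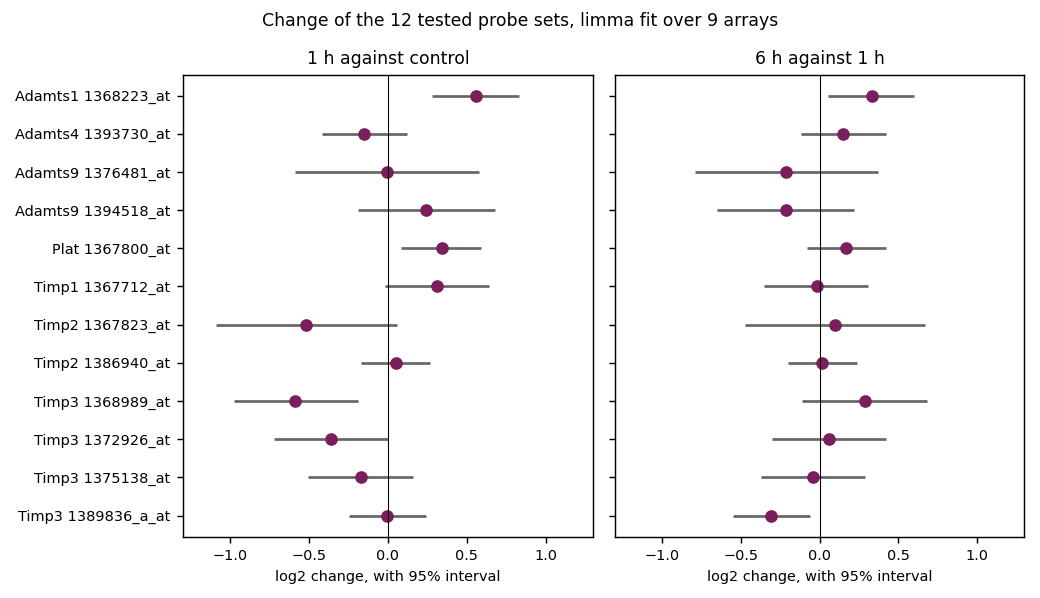
Points are log2 changes of the 12 tested probe sets and lines their 95% intervals from the limma fit over 9 arrays, for 1 h against control on the left and 6 h against 1 h on the right. At 1 h the intervals of Adamts1 (0.28 to 0.83) and Plat (0.085 to 0.59) lie above 0. That of Timp3 1368989_at (-0.98 to -0.19) lies below 0. At 6 h against 1 h that of Adamts1 (0.051 to 0.60) lies above 0 and that of Timp3 1389836_a_at (-0.55 to -0.062) below. No adjusted p passed in either comparison.

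The next comparison set 6 h against 1 h. It shares the 6 h arrays with the values by which Adamts1 was chosen. Adamts1 had 7.26, 6.95 and 7.15 on the 6 h arrays, against 6.89, 6.78 and 6.70 on the 1 h arrays. The lowest 6 h array was above the highest 1 h array. The change was 0.33 ± 0.12 (95% interval 0.051 to 0.60; adjusted p = 0.996 by limma). Plat had 8.72, 8.73 and 8.71 at 6 h, against 8.59, 8.69 and 8.37 at 1 h, again without overlap and with little spread at 6 h. Its change was 0.17 ± 0.11 (adjusted p = 0.996 by limma).

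The Timp3 probe set 1389836_a_at had 8.04, 8.05 and 8.03 at 6 h, against 8.40, 8.21 and 8.43 at 1 h. All 6 h arrays were lower, by -0.31 ± 0.11 (95% interval -0.55 to -0.062; adjusted p = 0.996 by limma). The other Timp3 probe sets overlapped between the times, with changes of 0.29 ± 0.18 for 1368989_at, 0.062 ± 0.16 for 1372926_at and -0.04 ± 0.15 for 1375138_at. Timp1 overlapped between the times, with a change of -0.016 ± 0.15 and a 95% interval of -0.35 to 0.31. The changes of Timp2 were 0.10 ± 0.26 and 0.017 ± 0.098, that of Adamts4 was 0.15 ± 0.12, and those of Adamts9 were -0.21 ± 0.26 and -0.21 ± 0.20. The untested Mmp9 1398275_at had 5.35, 4.87 and 4.43 at 6 h, against 5.39, 5.26 and 5.49 at 1 h, a difference of -0.49 between dim and overlapping values. Limma called 0 of the 12 between 6 h and 1 h, as it did 0% of all tested probe sets. At an unadjusted p under 0.05 there were 2 of 12, beside 2.72% of all tested. Of these 1 was higher (Adamts1; 1.31% of all) and 1 lower (Timp3 1389836_a_at; 1.41% of all). Over all 16 probe sets, 2 lay entirely above 1 h (Adamts1 and Plat), as did 3.97% of all 31042 probe sets. Another 1 lay entirely below (Timp3 1389836_a_at), as did 4.48%. Adamts1 was chosen by its 6 h values, so its place in these counts is a description only.

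For 6 h against control, the contrast behind the choice, the values are given without a test. Adamts1 had 7.26, 6.95 and 7.15 at 6 h, against 6.22, 6.19 and 6.30 in control, a difference of 0.88 and a fold of 1.84. The deposited signal was 135, 106 and 129 at 6 h, against 60.2, 60.1 and 67.0 in control. Its difference was the 14th highest of the 18625 tested, a rank from which nothing is read because Adamts1 was chosen by this difference. Plat differed by 0.51, a fold of 1.42, and Timp1 by 0.30. Timp1 had 6.16, 6.32 and 6.20 at 6 h, against 5.93, 6.12 and 5.74 in control, and did not overlap. The 4 Timp3 probe sets all had negative differences, between -0.31 and -0.21, and the values of 1389836_a_at lay entirely below control. With the 3'/5' ratio as a covariate these differences lay between -0.29 and -0.14, and without 1 array 1375138_at ran from -0.32 to -0.10 and 1372926_at from -0.44 to -0.16. The Timp2 pair had -0.41 for 1367823_at and 0.07 for 1386940_at. The value of 1367823_at was -0.079 with the covariate and ran from -0.72 to -0.17 without 1 array. Adamts4 differed by 0.00025, and Adamts9 by -0.22 and 0.029, and the sign of each turned when 1 array was left out. Of the 16, 3 lay entirely above control (5.73% of all) and 1 entirely below (3.77%), counts from which nothing is read here because the choice used this contrast. The 2 comparisons with control share the same control arrays, so their values for a gene are not independent of each other.

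Cell type markers were set beside Adamts1 and Plat, which blood vessel cells, astrocytes and microglia can also express. The summed signal of 7 endothelial markers on the array ran from 901.3 to 922.6 at 1 h, from 864.3 to 1007 at 6 h and from 775.6 to 878.3 in control, so every 1 h array was above every control array. The sum of 8 pericyte and smooth muscle markers ran from 348.5 to 388.4 at 1 h, from 345 to 385.9 at 6 h and from 332.5 to 389.3 in control. The sum of 8 astrocyte markers ran from 20340 to 21760 at 1 h, from 20320 to 22260 at 6 h and from 20580 to 21890 in control. The sum of 10 microglial markers ran from 1605 to 1712 at 1 h, from 1520 to 1619 at 6 h and from 1454 to 1605 in control. The sum of 6 meningeal fibroblast markers ran from 1235 to 1521 at 1 h, from 1243 to 1575 at 6 h and from 1321 to 1431 in control. In these 5 lists, and in the neuron, choroid plexus and oligodendrocyte lists below, limma called 0 markers in each of the 3 comparisons. Cd68 of the microglial and Anpep of the pericyte list were below the filter. Excitatory neuron markers, 6 genes, summed to between 4745 and 5268 at 1 h and between 4434 and 5492 at 6 h, all below the control range of 5709 to 6500. The sums of 6 interneuron markers lay the other way, between 6184 and 6653 at 1 h and between 6106 and 6264 at 6 h, against 5511 to 6014 in control. The sum of 5 choroid plexus markers, 3 of them below the filter, ran from 3825 to 4211 at 1 h and from 4435 to 4778 at 6 h, against 4630 to 4765 in control. The sum of 5 oligodendrocyte markers ran from 16030 to 16920 at 1 h, from 16360 to 17800 at 6 h and from 16590 to 17150 in control. The part of these shifts in the values of Adamts1, Plat and the Timp genes was not tested.

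The genes whose values over the 9 arrays were most like those of Adamts1 were Hey2, a transcriptional repressor downstream of Notch (Pearson r = 0.965), the small Maf transcription factor Maff (0.951), the prostaglandin E receptor Ptger3 (0.949), the cytokine Il1a (0.927) and the chemokine Ccl2 (0.927). These correlations describe 9 arrays in 3 groups and have no p. After the group means were removed they were 0.72 for Hey2, 0.546 for Maff, 0.711 for Ptger3, 0.00866 for Il1a and -0.62 for Ccl2, so for the last pair the likeness lay between groups and not within them. Hey2 had changes of 0.31 at 1 h and 0.43 at 6 h against control, and Ptger3 the same values of 0.31 and 0.43. The changes of the others were larger, with 0.77 and 1.13 for Maff, 0.50 and 0.79 for Il1a, and 1.34 and 1.77 for Ccl2. Among the protease and inhibitor probe sets, Plat was most like Adamts1 (r = 0.903), and Timp3 1389836_a_at had the most negative correlation with it (-0.692).

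Further genes of the pathway were taken from 7 lists by function, with 106 genes listed, 89 on the array and 65 tested through 81 probe sets. Limma called 0 of the 81 as higher and 0 as lower in each of the 3 comparisons. In the comparison of 6 h with control it called 0.0268% of all tested probe sets, 0.0215% as higher and 0.00537% as lower. At an unadjusted p under 0.05 there were 3 of 81 at 1 h against control (3.7%, beside 11.4% of all tested), 1 at 6 h against 1 h (1.23%, beside 2.72%) and 2 at 6 h against control (2.47%, beside 4.25%). Each share was below that of all tested probe sets. The genes behind these counts were S100a10, Reln, Tnr and Ctsl, named after their values were seen. Tnr, the perineuronal net glycoprotein tenascin R, had -1.05 ± 0.38 at 1 h (adjusted p = 0.386 by limma) and -0.39 ± 0.38 at 6 h against control. The Ctsl (cathepsin L) probe sets had 0.24 ± 0.11 and 0.046 ± 0.089 at 6 h against control.

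Among other ADAMTS proteases, 4 genes were tested, with changes between -0.11 and 0.34 at 1 h against control. The aggrecanase Adamts5 was below the filter in both of its probe sets. Other matrix metalloproteinases had 8 genes tested (10 probe sets, median 0.086 at 1 h and -0.0098 at 6 h against control). Mmp2, gelatinase A, had -0.10 ± 0.17 at 1 h and 0.15 ± 0.17 at 6 h against control in its tested probe set. Mmp14, a membrane-bound activator of MMP2, had 0.083 ± 0.26 at 1 h and -0.045 ± 0.26 at 6 h in its tested probe set. Stromelysin Mmp3 was below the filter, with group means of 5.20 at 1 h, 4.73 at 6 h and 4.73 in control. The list labelled ADAM sheddases had 7 genes tested through 8 probe sets. Its median was -0.043 at 1 h and -0.06 at 6 h against control. It also holds Adam11, Adam22 and Adam23, which are not sheddases, so this median is not of sheddases alone. In that list Adam17 had -0.14 ± 0.11 at 1 h and Adam10, the main alpha-secretase of neurons, had -0.50 ± 0.33 in its tested probe set.

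Of the other inhibitors none passed the test. Timp4, a brain and heart member of the family, had 0.24 ± 0.19 at 1 h and 0.20 ± 0.19 at 6 h against control. The membrane-anchored inhibitor Reck had 0.052 ± 0.15 and 0.05 ± 0.15, and the broad protease trap A2m had -0.14 ± 0.12 and -0.0059 ± 0.12. Among partners of the plasminogen system, 8 genes were tested. The urokinase receptor Plaur and plasminogen itself (Plg) were below the filter, as were both Plau probe sets. The serpins that inhibit tissue-type plasminogen activator in brain did not pass either. Serpine2 had -0.059 ± 0.085 at 1 h and 0.045 ± 0.085 at 6 h against control, and Serpini1 (neuroserpin) had -0.018 ± 0.092 and -0.023 ± 0.092 in one probe set and -0.27 ± 0.22 and -0.29 ± 0.22 in the other. Lrp1, a receptor that clears protease and inhibitor complexes, had -0.085 ± 0.20 and -0.12 ± 0.20 in its tested probe set. S100a10, part of a plasminogen receptor on cell surfaces, had 0.36 ± 0.095 at 1 h (adjusted p = 0.317 by limma), with means of 8.60 at 1 h, 8.50 at 6 h and 8.23 in control.

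Of the matrix substrates, 21 genes were tested through 31 probe sets, with a median of -0.073 at 1 h and 0.0042 at 6 h against control. Brevican (Bcan) had 0.07 ± 0.13 and 0.053 ± 0.20 at 1 h in its probe sets, and fibronectin (Fn1) -0.066 ± 0.11. Neurocan (Ncan) had -0.37 ± 0.21 at 1 h and -0.38 ± 0.21 at 6 h against control, with both ketone group means (5.17 each) under the filter level. The 3 tested versican (Vcan) probe sets had -0.56 ± 0.40, -0.35 ± 0.22 and -0.073 ± 0.15 at 1 h. The first had a 1 h mean of 5.17, under the filter level, against 5.73 in control. The second had 5.22, close to that level, against 5.57 in control. Aggrecan (Acan) had -0.22 ± 0.20 at 1 h in its tested probe set and 0.30 in the other, which was below the filter. Tenascin C (Tnc) had -0.25 ± 0.20 at 1 h. Reelin (Reln), a secreted glycoprotein that ADAMTS enzymes cut in mice, had -0.40 ± 0.11 at 1 h in one probe set (adjusted p = 0.335 by limma) and -0.19 ± 0.30 in the other. These had -0.11 ± 0.11 and -0.30 ± 0.30 at 6 h against control. Among cathepsins and serine proteases, the lysosomal cathepsin Ctsb had 0.026 ± 0.063 and the neuronal kallikrein Klk8 0.0079 ± 0.14 at 1 h.

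**Figure D4:**
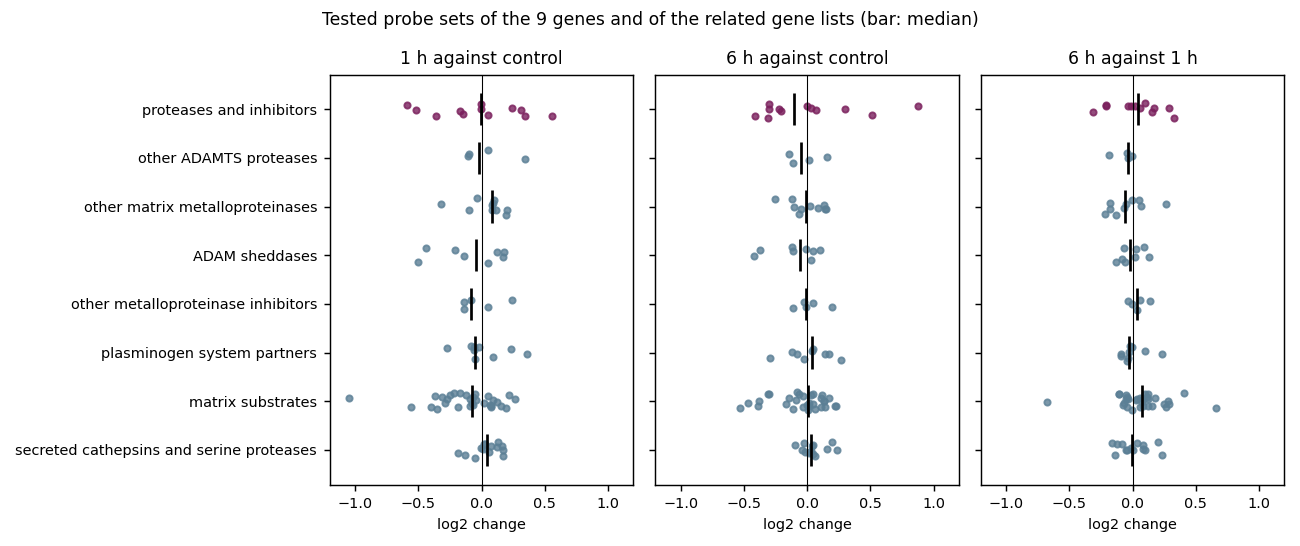
Each point is the log2 change of 1 tested probe set, in rows for the 9 protease and inhibitor genes and the 7 related lists, with panels for 1 h against control, 6 h against control and 6 h against 1 h; bars are medians and vertical scatter is for legibility. Adamts1 is the point farthest to the right at 6 h against control (0.88), and the medians of the 7 lists lie between -0.084 and 0.086 in the 3 panels.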

How the data were processed

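The authors deposited, for each array, a column of signal intensity over 31099 probe sets. The software behind it is not given in the sources used here. The range of the values showed a linear scale. The mean without the lowest and highest 2% was 150.05 on every array, which global scaling gives. No counts lie behind the values, and the number of arrays limits the precision. The 57 control probe sets were left out. Values were taken as log2(signal + 16) and quantile normalized, since the array medians spanned 0.206. Probe sets with a mean under the 40th percentile were not tested. A fit with limma 3.58.1 in R 4.3.3 held 1 coefficient per group, 6 residual degrees of freedom and an intensity trend, with Benjamini-Hochberg adjustment over 18625 probe sets. The genes, lists and settings were chosen with earlier results of these data known.

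Gene names came from the platform annotation; Entrez numbers of all 16 probe sets matched the rat RefSeq table and 0 symbols changed. Named genes were the 9 genes, a set from the 7 lists named whatever their values, those few with an unadjusted p under 0.05, and the 5 genes most correlated with Adamts1. Marker sums took, for each gene, its probe set of highest mean, on the signal scale after normalization. Pairwise tests of the 3'/5' ratio were exact. The alternatives were the values as deposited, median centring, pseudocounts of 1 and 64, testing without a filter, a filter at the 60th percentile, no trend, array weights, a replicate block, only the compared groups, the 3'/5' ratio as a covariate, and leaving out each array. The fit was also tested on simulated data. Figures were drawn with matplotlib 3.10.9.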

Additional observations from a re-analysis of the deposited data

How the results depend on the processing

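The count of protease and inhibitor probe sets called was 0 at 1 h against control and at 6 h against 1 h under all 20 alternatives, and that of related genes called was 0 in all 3 comparisons. Over all probe sets the count at 1 h against control ran from 0 (with the 3'/5' ratio as a covariate, and without any single control array, ketone_1h replicate 1 or ketone_1h replicate 3) to 25 (array weights), where the fit reported gave 6. At 6 h against control it ran from 1 to 6, where the fit reported gave 5. The Timp3 probe set 1368989_at fell below the filter without control replicate 2 or control replicate 3. For Adamts1 the change at 1 h against control ran from 0.36 (pseudocount 64) to 0.67 (pseudocount 1), with limma adjusted p from 0.0646 (array weights) to 0.772 (without control replicate 3). At 6 h against 1 h it ran from 0.23 to 0.41 (adjusted p from 0.598 to 1), and at 6 h against control from 0.60 with a pseudocount of 64 to 1.04 with a pseudocount of 1. Plat was positive throughout, from 0.27 to 0.43 at 1 h and from 0.44 to 0.58 at 6 h against control.

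The background moved with single arrays. At an unadjusted p under 0.05 it ran from 6.36% (without control replicate 3) to 14.9% (without ketone_6h replicate 1) at 1 h against control, beside 2 to 5 of the protease and inhibitor probe sets. At 6 h against 1 h it ran from 2.04% to 8.44% (without ketone_6h replicate 1), beside 0 to 2, and at 6 h against control from 2.8% (without ketone_6h replicate 2) to 8.62% (without ketone_6h replicate 3). Deviations of same-numbered arrays from their group means correlated at -0.36 to 0.54, those of other arrays at -0.43 to 0.53. With 3 arrays per group these ranges cannot decide whether a replicate number marks a shared source, which the labels leave unsaid. In this balanced design a replicate block leaves the log2 changes as they are and moves only their errors. With it Adamts1 had 0.56 at 1 h with an adjusted p of 0.343, and limma's calls over all probe sets were 2 at 1 h and 1 at 6 h against control, where they were 6 and 5 without it.

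Values that changed sign were uncalled, and the cause was not tested. With the values as deposited, Timp1 had 0.012 at 6 h against 1 h. With median centring, Adamts9 1376481_at had 0.0078 and Timp3 1389836_a_at 0.086 at 1 h against control, and Timp2 1386940_at -0.015 at 6 h against 1 h. With array weights, Adamts9 1376481_at had 0.069 at 1 h and Timp1 0.088 at 6 h against 1 h. With the 3'/5' ratio as a covariate, Timp3 1389836_a_at had 0.012 at 1 h. With 1 array left out, the range at 1 h was -0.15 to 0.093 for Adamts9 1376481_at, -0.09 to 0.059 for Timp3 1389836_a_at and -0.012 to 0.09 for Timp2 1386940_at. At 6 h against 1 h it was -0.11 to 0.073 for Timp1, -0.14 to 0.073 for Timp3 1375138_at, -0.08 to 0.20 for Timp3 1372926_at, -0.022 to 0.091 for Timp2 1386940_at, -0.20 to 0.35 for Timp2 1367823_at and -0.45 to 0.086 for Adamts9 1376481_at. At 6 h against control, given without a test, it was -0.11 to 0.091 for Adamts4, -0.45 to 0.081 for Adamts9 1376481_at and -0.071 to 0.16 for Adamts9 1394518_at, which also had -0.018 with the values as deposited and -0.037 with array weights. Adamts4 had -0.057 with array weights.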
